A study of Mus musculus with 4 samples.

Results

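The genes described here are 9 members of the MHC class II pathway, followed in MC38 cells with and without irradiation. MC38 is a line from a mouse colon adenocarcinoma, and the labels call it epithelial and wild type. The members are the invariant chain gene Cd74, the classical chain genes H2-Ab1 and H2-Aa, the peptide-exchange genes H2-DMa and H2-DMb1, the transactivator gene Ciita, and Rfx5, Rfxap and Rfxank, which encode the subunits of the RFX complex. They were taken by symbol from a table of 26561 genes, all 9 had a row in it, and they were selected on earlier results of the comparison of irradiated with unirradiated counts in these same libraries. One group was wild-type MC38 cells left unirradiated (2 libraries). The other was wild-type MC38 cells given a single X-ray dose of 30 Gy, with RNA taken 60 h later (2 libraries). When the unirradiated cells were harvested is not stated, so time in culture cannot be told apart from irradiation. The labels do not say whether replicates were separate cultures, so p-values reflect the spread of these 4 libraries alone, and that spread may be technical. MC38 is 1 tumour line, and the labels name no host and no other cells beside it. In such bulk RNA, a change in the number of cells that express a gene and a change in RNA per cell cannot be told apart.

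Class II molecules are pairs of an alpha and a beta chain that carry peptides from the endolysosome to the cell surface, where CD4+ T cells read them. The invariant chain holds newly made pairs in shape, blocks their groove and steers them to the endosome, where proteases cut it down to a short remnant. H2-DM, itself a pair of chains, then swaps that remnant for peptide. CIITA binds no DNA by itself. It is recruited by the RFX complex, NF-Y and CREB family factors sitting on the X and Y boxes of class II promoters, and it is the limiting switch in most cells. Professional antigen presenting cells make CIITA constantly, whereas epithelial and tumour cells usually make it only after interferon-gamma.

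Total counts ran from 26059171 to 29881492 per library. Of the labelled epithelial identity, the adhesion gene Cdh1 was present at 34.6 to 73.0 CPM (counts in 1e+06 of the scaled library size). The defining surface marker Epcam had no count in 3 libraries and 1 in irradiated replicate 2. Over all genes the edgeR quasi-likelihood test (Benjamini-Hochberg, threshold 0.05) called 60.7% of 15298 tested genes, with 30.4% higher and 30.3% lower after irradiation. The irradiated libraries lay entirely above the unirradiated ones for 39.7% of tested genes and entirely below them for 38.7%.

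Since the members were proposed with results of this comparison in view, their differences are given as a description, without p-values. Of the 9 members, 7 had enough counts for the fit across all genes, and H2-Aa and Ciita did not. The fit called 6 of these 7 higher (Cd74, H2-Ab1, H2-DMa, H2-DMb1, Rfx5 and Rfxank) and 1 lower (Rfxap), beside 30.4% and 30.3% of all tested genes. Cd74 and H2-Ab1 had enough counts only through the irradiated libraries. For them the filter on low counts itself favoured a call of higher. The sizes differed widely, from a 62.6-fold higher mean CPM for Cd74 to a 1.28-fold lower one for Rfxap.

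**Figure D1:**
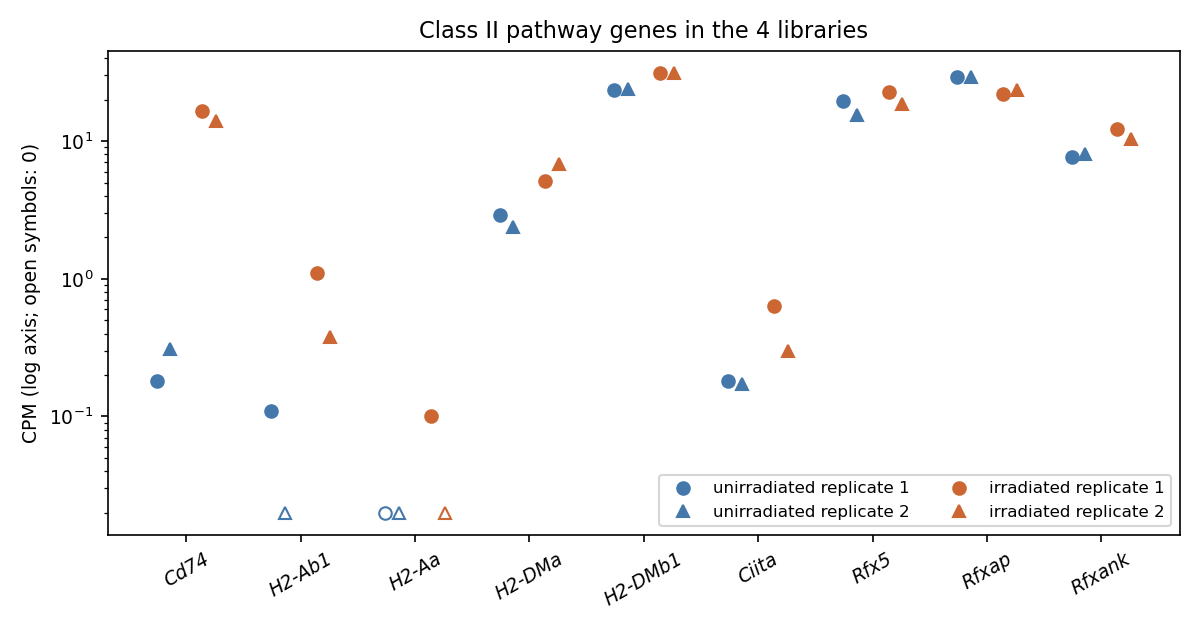
CPM of the 9 class II pathway genes in each library, on a log axis, with unirradiated libraries in blue and irradiated ones in orange. Open symbols mark a count of 0. Cd74 was at most 0.308 CPM in the unirradiated and at least 14.0 CPM in the irradiated libraries, H2-Ab1, H2-Aa and Ciita were at most 1.11 CPM, and the libraries of the groups overlap for H2-Aa and Rfx5.

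Cd74 (ENSMUSG00000024610, GRCm38 chromosome 18, 60803848 to 60812652, plus strand) stood out by size. It had counts of 5 and 9 without and 496 and 372 with irradiation. On the CPM scale these levels were 0.182 and 0.308 against 16.7 and 14.0. Both irradiated libraries were high, both unirradiated ones were near the limit of detection, and the groups lay far apart. Mean CPM went from 0.245 ± 0.0893 to 15.3 ± 1.87 (SD, n = 2), with a fitted log2 fold change of 5.93 (SE 0.28). Cd74 shares 12 exon bases with the microRNA gene Mir5107, for which no count was analysed here.

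The chains that the invariant chain escorts did not reach comparable levels. H2-Ab1 (ENSMUSG00000073421, chromosome 17, 34257689 to 34269419, plus strand) encodes the beta chain of I-A, the mouse counterpart of human HLA-DQ. It had counts of 3 and 0 in the unirradiated pair and 33 and 10 in the irradiated pair. The groups did not overlap, but irradiated replicate 1 held most of the counts. The ratio of summed counts, scaled to library size, was 14.4, with an exact (Clopper-Pearson) 95% interval of 4.62 to 72.7 (counting error alone). Without irradiated replicate 1, H2-Ab1 fell below the filter on low counts. Its log2 fold change was 3.71 (SE 0.94), 2.72 without unirradiated replicate 2 and 4.26 without irradiated replicate 2. Among tested genes with a mean under 1 CPM, 29.8% were called higher.

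H2-Aa (ENSMUSG00000036594, chromosome 17, 34282744 to 34287823, minus strand), which encodes the I-A alpha chain, had no count in either unirradiated library. It had 3 counts in irradiated replicate 1 and none in irradiated replicate 2. A pair of I-A chains needs both genes, and at this depth a change of H2-Aa was not detectable. H2-Ab1 and H2-Aa together held 3 and 0 counts before and 36 and 10 after irradiation, far fewer than Cd74. Per base of annotated exon, the irradiated libraries held 23.0 and 56.9 times as much Cd74 as H2-Ab1, and per base of the longest transcript 12.9 and 32.0 times.

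The remaining class II chain genes were as sparse. H2-Eb1, the beta chain of I-E, had no count before and 7 and 6 counts after irradiation, which is at least 4.36-fold higher if the unirradiated libraries together are set to a floor of 3 counts. H2-Ea-ps, the I-E alpha gene that the annotation lists as a polymorphic pseudogene and that C57BL/6 mice do not transcribe, had 1 count in irradiated replicate 1 and none elsewhere. H2-DMb2, a close copy of H2-DMb1, had no count before and 2 and 3 counts after irradiation, at least 1.68-fold higher against the same floor. All of these lay below the filter and were not tested, and H2-Oa, H2-Ob and H2-Eb2 were not analysed here.

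The H2-DM genes differed from the classical chains in that they were already expressed. H2-DMb1 (ENSMUSG00000079547, chromosome 17, 34153072 to 34160230, plus strand), the beta chain of H2-DM, had counts of 646 and 694 in the unirradiated pair and 926 and 833 in the irradiated pair. Mean CPM went from 23.6 ± 0.187 to 31.2 ± 0.192 (SD, n = 2), with a fitted log2 fold change of 0.40 (SE 0.09). Its libraries were tightly grouped and separate, although the step was only 1.32-fold. With the counts of its copy H2-DMb2 added, the log2 fold change was 0.41.

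H2-DMa (ENSMUSG00000037649, chromosome 17, 34119541 to 34139101, plus strand), the alpha chain of H2-DM, had counts of 80 and 69 in the unirradiated pair and 154 and 182 in the irradiated pair. Mean CPM went from 2.64 ± 0.387 to 6.01 ± 1.19 (SD, n = 2), with a fitted log2 fold change of 1.19 (SE 0.24), again without overlap. Of its 3448 exon bases, 360 are shared with Brd2 on the opposite strand. Brd2, a chromatin reader, held 9095 to 11800 counts and fell (log2 fold change -0.30, SE 0.03, edgeR adjusted p = 3.08e-20). No source used here says whether the authors' counting used strand, so the level of H2-DMa is uncertain, and the part of Brd2 reads in it was not tested.

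Promoter sequences from RefSeq (GRCm38.p6, 250 bases before the start) were found for 5 of the 9 members (H2-Aa, H2-DMa, H2-DMb1, Rfx5 and Rfxank) and 5 of the 6 other class II chains. They were searched on both strands for the X box letters AGNAAC and the Y box letters ATTGG, which do not overlap. AGNAAC followed on the same strand by ATTGG, with 10 to 40 bases between them, occurs in 1.42% of 32851 promoters. It was found in 1 of the 5 members, H2-DMb1, and in 4 of the 5 other chains. Alone, AGNAAC is in 42.3% and ATTGG in 33.8% of promoters. All 5 members, H2-DMa at 1 of its starts, and all 5 of the other chains held ATTGG. Rfx5 held AGNAAC and ATTGG, but not in that arrangement.

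The stretches below show the arrangement in H2-DMb1, the most abundant chain gene, beside its copy H2-DMb2 and beside H2-Eb1 and H2-Aa, all with few counts. Capitals mark AGNAAC with the bases that follow it in the X box, and ATTGG, the Y box letters, each written along the gene's own strand. They lie at chr17:34153088-34153114 and chr17:34153119-34153142 (H2-DMb1, plus), chr17:34305765-34305822 (H2-Eb1, plus), chr17:34287857-34287920 (H2-Aa, minus) and chr17:34145110-34145173 (H2-DMb2, plus). GENCODE starts H2-DMb1 upstream of the RefSeq start, so its boxes are shown as short pieces.
H2-DMb1, X box: gtttacctAGTAACTGATGatgctagg
H2-DMb1, Y box: ttcactcagtgATTGGtctgacct
H2-Eb1: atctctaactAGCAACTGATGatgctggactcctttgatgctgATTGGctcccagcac
H2-Aa: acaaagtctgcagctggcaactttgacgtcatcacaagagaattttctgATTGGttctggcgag
H2-DMb2: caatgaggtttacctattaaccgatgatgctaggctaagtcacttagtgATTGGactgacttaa

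Aligned on the Y box without gaps, the 39 bases from the X box to the Y box of H2-DMb1 matched H2-DMb2 at 34 positions. The differences were G2T, T7C, G22A, T24G and C30T, counted from the first X box base of H2-DMb1, with the H2-DMb1 base first. G2T lies in the searched letters, so H2-DMb2 has no AGNAAC there. A match is a description of letters, and the lack of one in H2-Aa or H2-DMb2 says only that these letters are absent from the window. H2-Eb1, with the full arrangement, had at most 7 counts in a library, and H2-DMb1, with the same arrangement, had at least 646.

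Ciita (ENSMUSG00000022504, chromosome 16, 10480059 to 10528418, plus strand), the master transactivator, was barely detected. It had counts of 5 and 5 in the unirradiated pair and 19 and 8 in the irradiated pair, or 0.182 and 0.171 against 0.638 and 0.301 CPM. The irradiated libraries were higher without overlap, but differed from each other by more than the lower of them differed from the unirradiated ones. Ciita lay below the filter and was not tested in the fit on all libraries. It shares 329 of 9535 exon bases with Dexi on the opposite strand. Dexi had counts of 454 and 457 in the unirradiated pair and 642 and 529 in the irradiated pair and rose (log2 fold change 0.37, edgeR adjusted p = 0.00227), and the part of its reads in Ciita was not tested.

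The RFX genes were expressed in all libraries and did not move together. Rfxank (ENSMUSG00000036120, chromosome 8, 70130794 to 70139154, minus strand), the ankyrin-repeat subunit, had counts of 211 and 236 in the unirradiated pair and 363 and 275 in the irradiated pair. Its mean CPM went from 7.88 ± 0.287 to 11.3 ± 1.30 (SD, n = 2), with a fitted log2 fold change of 0.52 (SE 0.16), with separate groups. Without irradiated replicate 1 its log2 fold change was 0.39 and it was no longer called. It shares 1341 exon bases with Nr2c2ap on the opposite strand, which held 91 to 126 counts and did not pass the test (log2 fold change 0.04, edgeR adjusted p = 0.895).

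Rfx5 (ENSMUSG00000005774, chromosome 3, 94954075 to 94961561, plus strand), the DNA-binding subunit, had counts of 539 and 450 in the unirradiated pair and 678 and 497 in the irradiated pair. In CPM these were 19.6 and 15.4 against 22.8 and 18.7, so irradiated replicate 2 lay below unirradiated replicate 1 and the groups overlapped. Its log2 fold change was 0.25 (SE 0.11), and it was 0.07 without unirradiated replicate 2 and 0.09 without irradiated replicate 1, in both cases without a call. It shares 1471 exon bases with B230398E01Rik on the opposite strand, which had at most 4 counts in a library. Rfxap (ENSMUSG00000036615, chromosome 3, 54803115 to 54807791, minus strand), the RFX-associated subunit, had counts of 798 and 848 in the unirradiated pair and 658 and 621 in the irradiated pair. Mean CPM went from 29.0 ± 0.00594 to 22.7 ± 0.911 (SD, n = 2), with a fitted log2 fold change of -0.35 (SE 0.10), and it is the member that was lower.

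**Figure D2:**
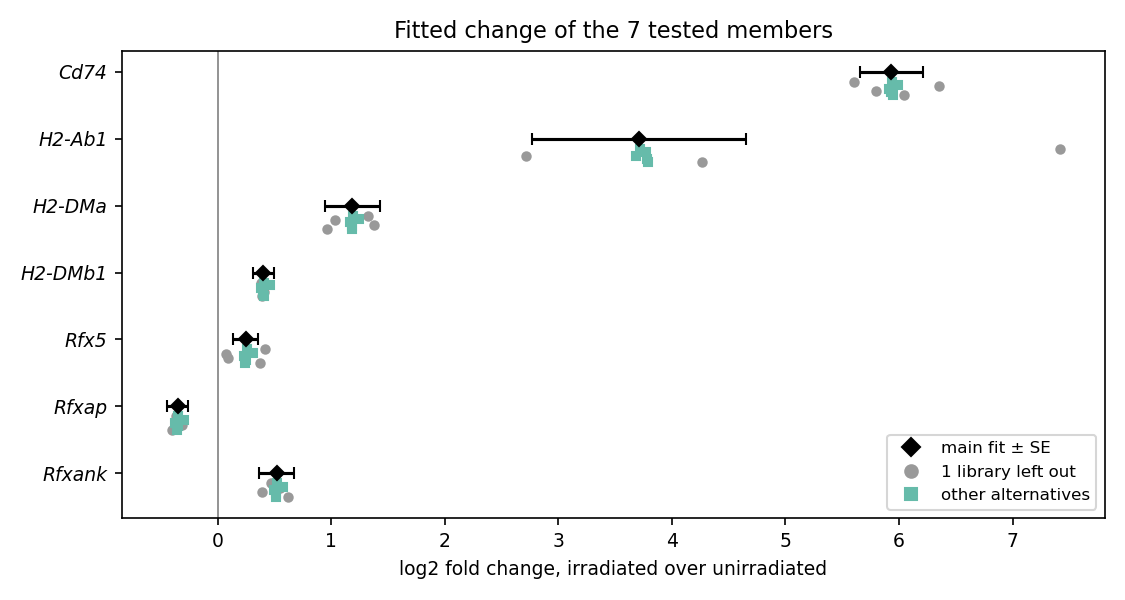
Log2 fold change of the 7 tested members, irradiated over unirradiated, with black diamonds for the fit on all libraries ± SE, grey dots for fits with 1 library left out and green squares for other settings. Cd74 stayed between 5.60 and 6.35 with 1 library left out. H2-Ab1 moved most, and its rightmost dot is fitted against a library with 0 counts and is no bound.

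Levels of different genes were compared per length, as counts per base of annotated exon scaled to the same total in every library. After irradiation the order was H2-DMb1 (68.2 ± 0.724), Rfxap (37.2 ± 0.867), Cd74 (33.5 ± 4.65), Rfx5 (13.9 ± 2.15), Rfxank (10.4 ± 1.37), H2-DMa (6.39 ± 1.16), H2-Ab1 (1.07 ± 0.757), Ciita (0.182 ± 0.0947) and H2-Aa (0.0493 ± 0.0697; SD, n = 2). Rfxap and Cd74 overlapped in their libraries, and the other neighbours did not. Before irradiation Cd74 stood at 0.517 ± 0.187, the sixth of the 9 after H2-DMb1, Rfxap, Rfx5, Rfxank and H2-DMa. Cd74 thus passed Rfx5, Rfxank and H2-DMa in level, and no other member changed its place relative to these.

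The class II chain genes lie together on chromosome 17, between 34092340 and 34344645, and this stretch also holds genes of other roles. Of 12 annotated genes there that are not class II chains, 8 were analysed and 6 tested. The fit called 4 higher, the MHC class I loading genes Psmb9, Psmb8, Tap1 and Tap2, and 1 lower, Brd2. Over all tested genes it called 30.4% higher and 30.3% lower. Psmb9, an immunoproteasome subunit, had counts of 46 and 62 in the unirradiated pair and 263 and 317 in the irradiated pair (log2 fold change 2.44, SE 0.22, edgeR adjusted p = 3.58e-28). Tap1 and Tap2, the peptide transporter, had log2 fold changes of 1.30 each. These genes sit between H2-DMb1, which was 1.32-fold higher, and H2-Ab1, which had at most 33 counts. Genes of this stretch named beyond the class II chains were chosen after their values were seen.

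**Figure D3:**
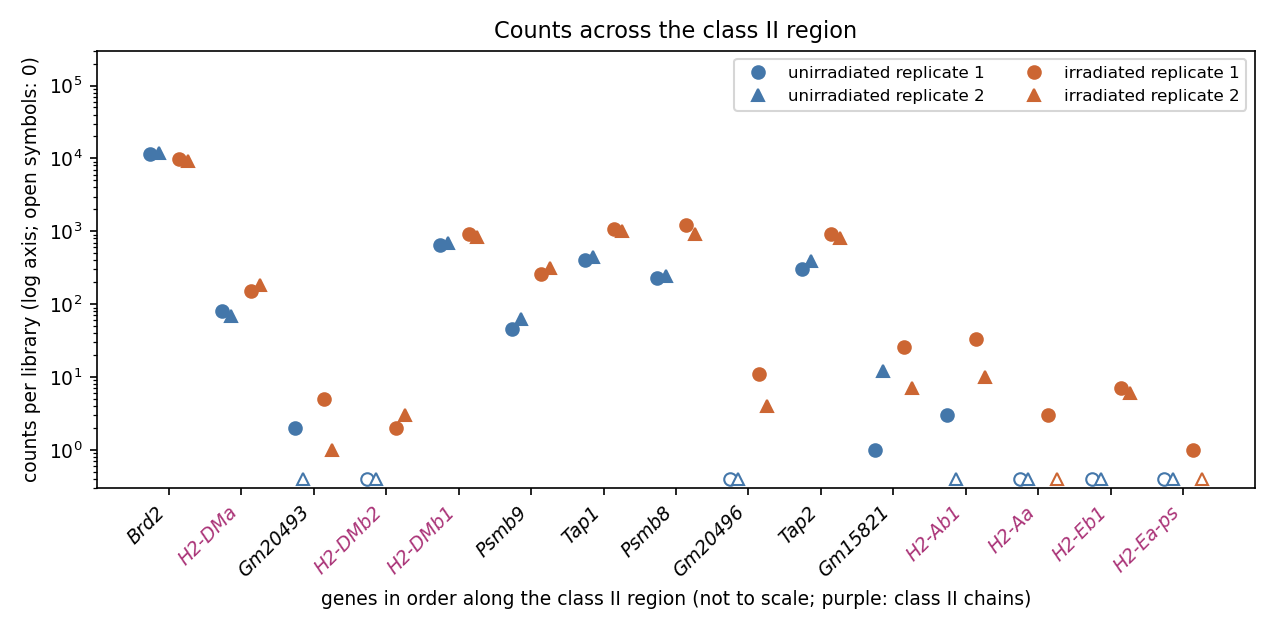
Counts per library for the 15 analysed genes of the class II region in their order along chromosome 17, on a log axis, with class II chain names in purple and open symbols for 0. H2-DMb1 and H2-DMa hold at least 69 counts and the class I loading genes at least 46, whereas H2-DMb2, H2-Ab1, H2-Aa, H2-Eb1 and H2-Ea-ps hold at most 33.

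Genes upstream of Ciita were examined from a list of the interferon-gamma arm, which also holds Nlrc5, a gene not upstream of Ciita. Of 12 tested genes, 9 rose and 3 fell, beside 30.4% of all tested genes called higher and 30.3% called lower. The list had a median log2 fold change of 0.64 beside 0.01 over all genes tested. Irf1, which acts at the inducible Ciita promoter, rose from 51.7 ± 4.58 to 125 ± 1.33 CPM (SD, n = 2; log2 fold change 1.28, SE 0.05, edgeR adjusted p = 1.04e-118). Chosen after their values were seen, as were Nlrc5 and the inhibitors below, the receptor genes Ifngr1 and Ifngr2 rose with log2 fold changes of 0.75 and 0.74. Nlrc5, a relative of Ciita that drives class I genes through the same RFX complex, rose from 725 and 686 to 1511 and 1444 counts (log2 fold change 1.08). The genes that fell were the signalling inhibitors Socs1 (-0.39), Socs3 (-0.57) and Ptpn2 (-0.26). Ifng itself had 1 count in irradiated replicate 1 and none elsewhere.

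A list of partners of CIITA and RFX on class II promoters (NF-Y, CREB, co-activator and chromatin genes) also held repressor genes. Of its 19 tested genes, 14 fell, 2 rose and 3 did not pass. The falls included the repressor genes Ezh2 (log2 fold change -0.38), Hdac2 (-0.65) and Sin3a (-0.19), chosen after their values were seen. Hdac1, chosen in the same way, did not pass (0.06). Of all tested genes 30.3% were called lower and 30.4% higher. The whole list, repressors included, had a median log2 fold change of -0.38, and scaled by library totals alone 4 of its genes were called higher and 14 lower. Ctcf, which insulates and loops the class II region, fell from 158 ± 2.04 to 79.5 ± 5.93 CPM (log2 fold change -0.99, SE 0.05, edgeR adjusted p = 4.41e-91). Carm1, an arginine methyltransferase that works with CIITA, fell from 105 ± 2.39 to 52.9 ± 0.391 CPM (-0.99, SE 0.06, edgeR adjusted p = 3.10e-68; SD, n = 2). Chosen after their values were seen, the NF-Y subunit genes Nfya (log2 fold change -0.68), Nfyb (-0.58) and Nfyc (-0.40) fell, as did Creb1 (-0.70). The genes that rose were the acetyltransferases Crebbp (0.20) and Kat2b (0.25), also chosen after their values were seen.

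Downstream of assembly, 10 of 14 tested genes of endolysosomal antigen processing rose and 3 fell (Tfeb, Ap1s1 and Ap2s1, chosen after their values were seen). Over all tested genes, 30.4% were called higher and 30.3% lower. The list had a median log2 fold change of 0.77. Ctsd, an aspartic protease, rose 2.75-fold, from 7904 and 8380 counts in the unirradiated pair to 23658 and 20901 in the irradiated pair (log2 fold change 1.46, SE 0.03, with an edgeR adjusted p too small to be held as a number). Lamp2, a lysosomal membrane protein, rose 2.33-fold (1.22, SE 0.03, with an edgeR adjusted p too small to be held as a number). The thiol reductase gene Ifi30, chosen after its values were seen, rose with a log2 fold change of 0.75. Ctss, the protease that finishes invariant chain removal in professional antigen presenting cells, had counts of 2 and 0 in the unirradiated pair and 7 and 5 in the irradiated pair. The scaled ratio of its counts was 6.04 (exact 95% interval 1.34 to 55.5), and it was below the filter. Ctsl, which does this in thymic epithelium, had counts of 13765 and 15067 in the unirradiated pair and 29238 and 26432 in the irradiated pair (log2 fold change 0.96). Sppl2a, the membrane protease that clears the last invariant chain fragment, rose with a log2 fold change of 0.57. Ctss, Ctsl and Sppl2a were chosen after their values were seen.

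**Figure D4:**
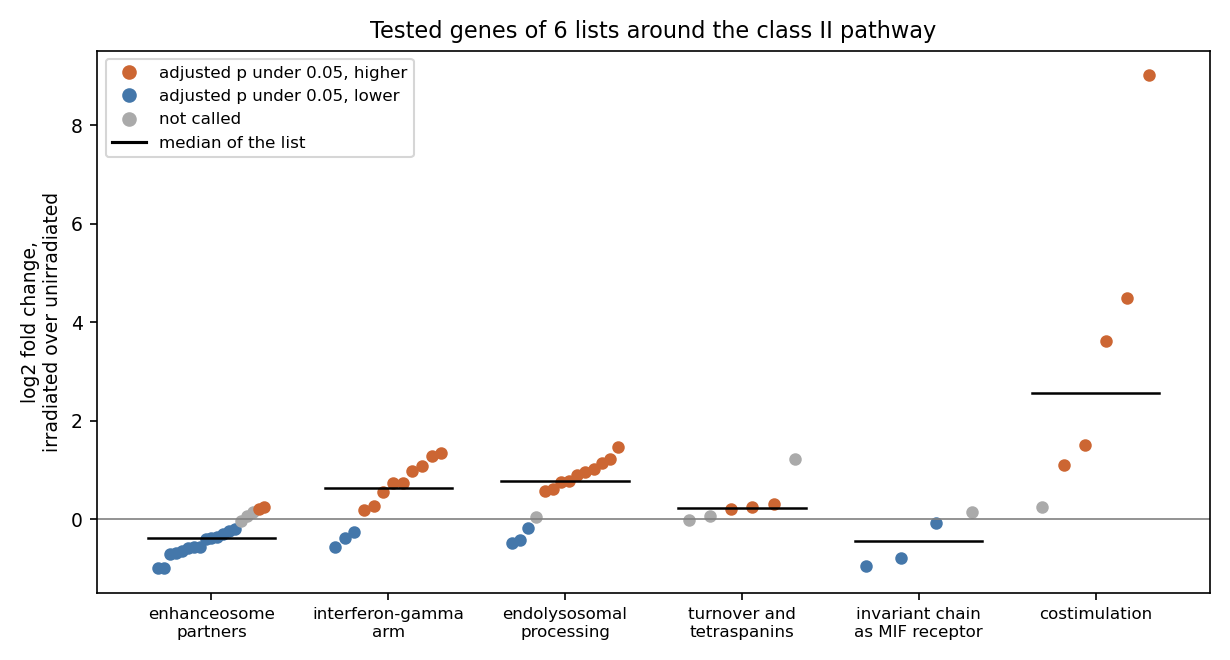
Log2 fold change of each tested gene in 6 lists around the class II pathway, irradiated over unirradiated, in orange where called higher, blue where called lower and grey where not called, with a black line at each list's median. Medians run from -0.43 for the invariant chain as MIF receptor to 2.56 for costimulation, and the topmost point, Tnfsf18, is fitted against 0 counts and is no bound.

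Most tested genes for turnover at the surface and for the tetraspanins that gather class II molecules changed little. Of 6 tested, 3 rose and 3 did not pass, beside 30.4% of all tested genes called higher. The list had a median log2 fold change of 0.23. The largest was that of the tetraspanin gene Cd53 (1.22, SE 0.71), which did not pass and was chosen after its values were seen. Cd53 had counts of 8 and 8 in the unirradiated pair and 15 and 22 in the irradiated pair. Cd63, a tetraspanin of class II compartments, rose 1.23-fold (log2 fold change 0.30, SE 0.04, edgeR adjusted p = 5.09e-16). March8, a ubiquitin ligase that removes surface proteins, rose 1.19-fold (0.26, SE 0.06, edgeR adjusted p = 1.94e-05). March1, the ligase that removes class II in dendritic and B cells, had counts of 10 and 9 in the unirradiated pair and 3 and 7 in the irradiated pair.

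The invariant chain also serves at the cell surface as the receptor for the cytokine MIF, with CD44 as its signalling partner. Of 4 tested genes of this function, 3 fell, none rose and 1, the MIF homologue Ddt, did not pass (log2 fold change 0.15, SE 0.19). The share called lower over all tested genes was 30.3%. Mif went from 193 ± 13.5 to 112 ± 2.73 CPM (log2 fold change -0.78, SE 0.04, edgeR adjusted p = 2.94e-71), and Ackr3, a chemokine receptor that also binds MIF, from 95.8 ± 1.77 to 49.6 ± 1.09 CPM (-0.95, SE 0.06, edgeR adjusted p = 1.18e-60; SD, n = 2). Cd44 differed by a log2 fold change of -0.08 (SE 0.03), the smallest of these falls, and was chosen after its values were seen. It was not called when scaled by library totals alone (-0.02), without unirradiated replicate 2 (-0.07) or without irradiated replicate 1 (-0.08), which leaves 2 of the 4 genes called lower.

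Of the costimulatory, coinhibitory and adhesion ligands that accompany class II on antigen presenting cells, 5 of 6 tested genes rose and none fell. The share called higher over all tested genes was 30.4%. Cd80 and Tnfsf18 passed the filter on low counts only through the irradiated libraries, which favoured a call of higher for them. The list had a median log2 fold change of 2.56. Setting Tnfsf18 at its bound could not move this median, since Tnfsf18 stays the highest of the tested genes. Among the 5 was Cd274, which encodes the coinhibitory ligand PD-L1 (log2 fold change 1.51, SE 0.25), chosen after its values were seen. Icam1, an adhesion ligand for T cells, had counts of 25 and 18 in the unirradiated pair and 269 and 257 in the irradiated pair (log2 fold change 3.61, SE 0.27, edgeR adjusted p = 1.49e-40). Tnfsf9, the ligand of 4-1BB, rose from 7.57 ± 1.75 to 16.2 ± 1.69 CPM (SD, n = 2; log2 fold change 1.10, SE 0.14, edgeR adjusted p = 1.46e-13). The following were chosen after their values were seen. Cd80, a ligand of CD28, had 0 and 2 counts before and 25 in each irradiated library, a scaled ratio of 25.2 (exact 95% interval 6.61 to 213). Tnfsf18, the ligand of GITR, had no count before and 65 and 63 after irradiation, which with that floor is at least 42.9-fold higher. Cd86, the other CD28 ligand, and Cd40 had at most 8 counts in a library and were not tested.

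Markers of leukocytes, among them cells that carry class II by nature, moved in part with Cd74. Macrophage markers were analysed for 8 of 12 genes, and their summed level was 8.60 to 10.4 CPM in the unirradiated and 39.1 to 44.98 CPM in the irradiated libraries. Nearly all of it was Cd68, a lysosomal membrane protein, at 4.23 ± 0.555 and 34.6 ± 4.23 CPM (SD, n = 2), and Cd14. The defining macrophage genes Adgre1, Csf1r and C1qb had at most 2 counts in any library. Dendritic cell markers (6 of 8 genes analysed) summed to 8.66 to 8.67 and 22.6 to 25.2 CPM, most of it Zbtb46, with Itgax at 0, 0, 1 and 0 counts and Flt3 at no more than 4. Leukocyte markers (4 of 5) summed to 0.754 to 1.09 and 3.63 to 3.77 CPM, where Coro1a was highest and Ptprc, which encodes CD45, had counts of 10 and 6 in the unirradiated pair and 24 and 17 in the irradiated pair. B cell markers (6 of 6) summed to at most 0.103 before and to 2.45 to 3.77 CPM after irradiation, most of it Pax5, while Ms4a1 and Cd79b had at most 2 counts in any library. The T and NK cell list (4 of 8) summed to at most 0.473 CPM in any library, and its highest gene was Cd4. Other markers of these lists had more counts after irradiation, among them Xcr1 with 96 and 120 and Lyz2 with 23 and 20. The part of such cells in the level of Cd74, 15.3 CPM after irradiation, was not tested.

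By the rule of nearness to Cd74 over the 4 libraries, on log2(CPM + 1) values centred for each gene, the closest genes with a mean of at least 5 CPM were Dcn, Xaf1, Tnfrsf9, Iigp1 and Oas3. Their distances from Cd74 ran from 0.175 to 0.275 log2 units. Dcn encodes the matrix proteoglycan decorin, Tnfrsf9 the receptor 4-1BB, and Iigp1 and Oas3 are interferon-inducible. Xaf1, a pro-apoptotic protein gene, had counts of 32 and 36 in the unirradiated pair and 869 and 771 in the irradiated pair. With 4 libraries in 2 groups this likeness is a description only.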

How the data were processed

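RNA-seq counts from 4 libraries of MC38 cells were used. The authors deposited raw counts for each Ensembl gene, whole numbers in a column for each library. Per the submitters' processing notes, HISAT2, HISAT, HTSeq, DESeq2 and the mm10 build were used. The annotation, the strand option and the handling of multiply mapped reads are unstated there, so close copies and overlapping genes may have lost or shared reads. Groups come from sample titles, since the description of unirradiated replicate 2 repeats that of replicate 1. Symbols and coordinates come from GENCODE M21 (GRCm38, the build that mm10 names), and 159 genes had no symbol there.

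Differences were tested with edgeR 4.0.16 in R 4.3.3 (TMM, filterByExpr, robust glmQLFit, glmQLFTest, irradiation as the only term), with Benjamini-Hochberg over 15298 genes. The 11263 genes below the filter hold under 0.1% of counts. SE is the log2 fold change over the square root of F. Within each group the libraries differed beyond counting noise (mean chi-square per gene 3.38 and 4.73), so none was treated as a second copy of another, which does not show that they are separate cultures. The fit was tested on simulated data. Members, lists and tests were chosen with earlier results of these data known. Named are all members and class II chains, per list the 2 most changed genes with a mean of at least 5 CPM and separate groups, the highest gene of each marker list and the 5 genes nearest to Cd74; any other gene named was chosen after its values were seen. Some genes that the rule names are not reported here. The alternatives were other scalings, no filter, DESeq2 1.42.0, a replicate block, each library left out, the copies of H2-DMb summed and another gene length.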

Additional observations from a re-analysis of the deposited data

How the results depend on the processing

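Cd74, H2-DMa, H2-DMb1 and Rfxap kept their direction and call in every alternative run, and H2-Ab1 in those that tested it. With 1 library left out, 3 to 6 members were called higher, the lowest count without irradiated replicate 1, and 1 was called lower. Rfx5 was no longer called with the replicate number as a block, with DESeq2, without a filter, or without unirradiated replicate 2 or irradiated replicate 1. Its log2 fold change was 0.25 in the block fit, 0.24 with DESeq2 and 0.23 without a filter. Deviations of same-numbered libraries from their group means correlated at -0.0106. With 2 libraries in each group these deviations are mirror images, so the value cannot show whether same-numbered libraries were paired. The replicate block gave 4507 genes called higher and 4519 lower. Ciita was below the filter or not called in every alternative, with a log2 fold change of 1.38 without a filter. With 1 library left out the interferon-gamma arm had 1 to 3 genes lower, fewest without irradiated replicate 2, and endolysosomal processing 1 to 3, fewest without unirradiated or irradiated replicate 1. Scaled by library totals alone, 4 genes of the list of CIITA and RFX partners and repressors were higher. Per longest transcript, irradiated levels were 61.9 for H2-DMb1, 29.3 for Rfxap, 8.70 for Rfxank and 8.34 for H2-DMa, and Cd74 at 30.3 stood above Rfxap. The cause of each of these shifts was not tested. The depth leaves H2-Aa, H2-Eb1, H2-DMb2 and Ciita below what the fit can resolve.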

Other observations

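Several genes known from antigen presenting lineages had more counts after irradiation, while some other markers of those lineages stayed sparse. Others were well counted, among them Zbtb46, with 232 and 239 counts in the unirradiated and 563 and 536 in the irradiated pair. Cd68 had 127 and 112 counts in the unirradiated and 1120 and 840 in the irradiated pair. Pax5, the B cell identity factor that acts at the B cell promoter of Ciita, had no count in either unirradiated library and 67 and 82 in the irradiated ones. That is at least 49.98-fold higher if the unirradiated libraries together are set to a floor of 3 counts. Pax5, and Xcr1 below, had enough counts for the test only through the irradiated libraries, so no p-value is given for them. The B cell markers Cd22, Cd79a, Cd79b and Ms4a1 had at most 10 counts in any library. Xcr1, a chemokine receptor that marks cross-presenting dendritic cells, had counts of 2 and 12 in the unirradiated pair and 96 and 120 in the irradiated pair (log2 fold change 3.95, SE 0.44). Clec9a, which marks the same dendritic cells, had counts of 2 and 1 in the unirradiated pair and 3 and 6 in the irradiated pair. Lyz2, the myeloid lysozyme gene, had counts of 0 and 2 in the unirradiated pair and 23 and 20 in the irradiated pair, a scaled ratio of 21.6 (exact 95% interval 5.64 to 184). Xcr1, Clec9a and Lyz2 were chosen after their values were seen.

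Markers of connective tissue were present beside those of epithelium. Of the 6 fibroblast markers, 5 were tested and all 5 rose, beside 30.4% of all tested genes called higher. Thy1 had at most 2 counts in any library. Col3a1, a fibrillar collagen gene, stood at 350 ± 3.31 CPM before and 673 ± 2.32 CPM after irradiation (SD, n = 2; edgeR adjusted p = 2.25e-219). Per base of annotated exon, the unirradiated levels of Col3a1 (126) and Pdgfrb (43.6) were above that of the epithelial gene Cdh1 (27.4). Those of Pdgfra (10.4), Col1a1 (2.81) and Dcn (1.11) were below it. Of 10 epithelial markers 8 were analysed, and apart from Cdh1 none exceeded 2 CPM in any library. Of the endothelial markers, Pecam1 and Tek were tested and rose. Pecam1 had 63 and 47 counts before and 145 in each irradiated library. Tek had counts of 0 and 4 in the unirradiated pair and 25 and 23 in the irradiated pair, Cdh5 had at most 12, and Kdr and Emcn at most 3.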
